A study of Mus musculus with 14 samples.

Results

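The genes *Glycam1*, *Pip*, *Lpo*, *Cel*, *Spp1* and *Saa3* encode secreted proteins of milk other than the caseins and whey acidic protein. They were taken by name from the gene column of both deposited tables, and all 6 had a row among the 20515 genes with a usable symbol. The tables hold total RNA-seq of mammary tissue at lactation day 10 (L10) from mice with the genotype wt/Wap-Tbrg4, given as WT_wTbrg4 in the labels. The names of the deposited tables spell this genotype differently, and the sample titles were followed. These mice carry 1 wild-type allele and 1 allele in which a CRISPR/Cas9 deletion joined the *Wap* super-enhancer and promoter to *Tbrg4*, the gene beside *Wap*. The deletion fused the first exons of the 2 genes, so an intact *Wap* gene remains on the wild-type allele only. There was 1 group with 2 replicate libraries, so no group could be compared with another and no test was possible. The labels do not say whether the 2 libraries came from separate mice. The ChIP-seq samples of the series were not analysed here.

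Milk carries, besides its nutrient proteins, a set of secreted proteins with roles in lubrication, lipid digestion, adhesion and defense. Most are made by the luminal alveolar cells, whose secretory program is switched on by prolactin through the transcription factor STAT5. *Glycam1* encodes a mucin-like, heavily O-glycosylated protein that also serves as an adhesion ligand in high endothelial venules. *Pip* encodes prolactin-induced protein, a small secreted glycoprotein of saliva, tears and milk. *Lpo* encodes lactoperoxidase, a heme enzyme that uses hydrogen peroxide to turn thiocyanate into an antibacterial oxidant. *Cel* encodes the bile salt-stimulated lipase of pancreatic juice and milk. *Spp1* encodes osteopontin, a phosphoprotein that binds integrins and CD44, and *Saa3* encodes a serum amyloid A protein of the acute phase response.

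The 250 bases before the RefSeq start of 3 of the genes (GRCm38.p6) are shown because these genes were the highest (*Glycam1*), the one furthest apart between the libraries (*Pip*) and the lowest (*Saa3*) in exon signal. Each is written 5′ to 3′ on the gene's strand, with matches in capitals to TTCNNNGAA, the letters of a STAT site, to TATAAA and to TGACGTCA, the letters of a CREB site, on either strand. The windows lie at chr15:103565082-103565331 on the minus strand for *Glycam1*, at chr6:41847299-41847548 on the plus strand for *Pip*, and at chr7:46715677-46715926 on the minus strand for *Saa3*.
Glycam1: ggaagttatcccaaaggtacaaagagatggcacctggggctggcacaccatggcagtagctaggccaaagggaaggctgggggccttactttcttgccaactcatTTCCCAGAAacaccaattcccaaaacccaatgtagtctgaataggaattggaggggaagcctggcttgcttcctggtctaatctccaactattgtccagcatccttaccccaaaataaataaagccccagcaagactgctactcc
Pip: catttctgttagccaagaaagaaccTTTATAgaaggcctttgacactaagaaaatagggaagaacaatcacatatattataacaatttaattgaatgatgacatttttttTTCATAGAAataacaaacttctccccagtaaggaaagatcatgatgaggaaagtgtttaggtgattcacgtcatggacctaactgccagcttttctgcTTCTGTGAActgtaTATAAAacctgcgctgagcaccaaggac
Saa3: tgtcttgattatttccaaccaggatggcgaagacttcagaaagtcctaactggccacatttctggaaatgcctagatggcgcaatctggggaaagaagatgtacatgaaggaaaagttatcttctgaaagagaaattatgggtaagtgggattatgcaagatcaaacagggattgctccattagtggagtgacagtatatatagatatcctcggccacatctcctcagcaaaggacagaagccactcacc

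The *Glycam1* window held 1 match to TTCNNNGAA, ttcccagaa, which began 145 bases before the start. The *Pip* window held 2, ttcatagaa and ttctgtgaa, which began 140 and 42 bases before the start, and TATAAA at 28 bases and, on the other strand as tttata, at 225 bases before it. The *Saa3*, *Cel* and *Lpo* windows held none of the 3 motifs, and 1 of the *Spp1* windows held a TATAAA that began 211 bases before its start. Over all 32851 promoter windows of the same length, TTCNNNGAA was present in 7.02%, TATAAA in 12.4% and TGACGTCA in 1.55%. No member window held TGACGTCA. These matches describe letters in the windows and nothing about binding.

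Signal was given as FPKM, fragments per kilobase after scaling for library size, separately for exons and for the introns between them, with 1 decimal. In total RNA, intron signal comes mainly from transcripts that are not yet spliced, and exon signal mainly from mature mRNA. Added over all genes, exon FPKM came to 852961 for replicate 1 against 1788119 for replicate 2, with 79.5% and 90.6% of this in the 10 highest genes. From the spacing of low values, 1 FPKM over 1 kb was estimated to stand for 10 reads in replicate 1 and 5.1 reads in replicate 2, with 12000000 and 11300000 exon reads in all. The scaling thus did not follow the exon reads, and how it was set is not given in the sources used here. Of the 20515 genes, 9845 averaged an exon FPKM of 1 or more, and counts of this kind below stand beside that share. All 5 luminal epithelial markers with a row passed this level, and so did all macrophage, adipocyte, endothelial and fibroblast markers. The myoepithelial marker *Acta2* was listed at 0 in both libraries, so a 0 in these tables may be a missing estimate rather than absence.

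*Glycam1* was the highest of the 6 genes, since replicate 1 gave an exon FPKM of 47528.0 and replicate 2 gave 58226.0 (mean 52877 ± 7565, SD, n = 2). It ranked 6 and 7 among all genes and held 5.57% and 3.26% of the summed exon FPKM. The gene lies at chr15:103562759-103565081 on the minus strand, with 4 exons of 669 bases together. Its level was of the order of *Trf*, which encodes transferrin, and of *Csn3*, which encodes κ-casein: the libraries of *Glycam1* overlapped those of both genes. *Trf* had 63332.8 and 46657.3, and *Csn3* had 15499.3 and 64070.4. *Wap*, which is intact on only 1 allele of these mice, lay above it in both libraries, with *Glycam1* at 0.275 and 0.248 of the *Wap* exon FPKM. Within bulk tissue, fewer cells of a type and less RNA per cell cannot be told apart.

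*Cel* (chr2:28555819-28563403) came next, with an exon FPKM of 1261.5 and 1419.7 (mean 1341 ± 112), and ranked 18 and 17. *Spp1* (chr5:104435111-104441053) followed with 291.9 and 200.5 (mean 246 ± 64.6), at ranks 71 and 112. *Lpo* (chr11:87806428-87826114) had 30.0 and 40.2 (mean 35.1 ± 7.21), at ranks 968 and 636. These 3 genes, with *Glycam1*, kept the same order in both libraries and did not overlap one another. *Pip* (chr6:41847549-41852065) had 11.8 and 87.6 (mean 49.7 ± 53.6) and ranked 2732 and 235, so its libraries spanned those of *Lpo* and the order of *Pip* and *Lpo* turned between the libraries. *Saa3* (chr7:46711998-46715676) was the lowest, with 0.7 and 1.0, at ranks 10351 and 9472. *Glycam1* alone held 96.8% and 97.1% of the exon FPKM summed over the 6 genes.

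**Figure D1:**
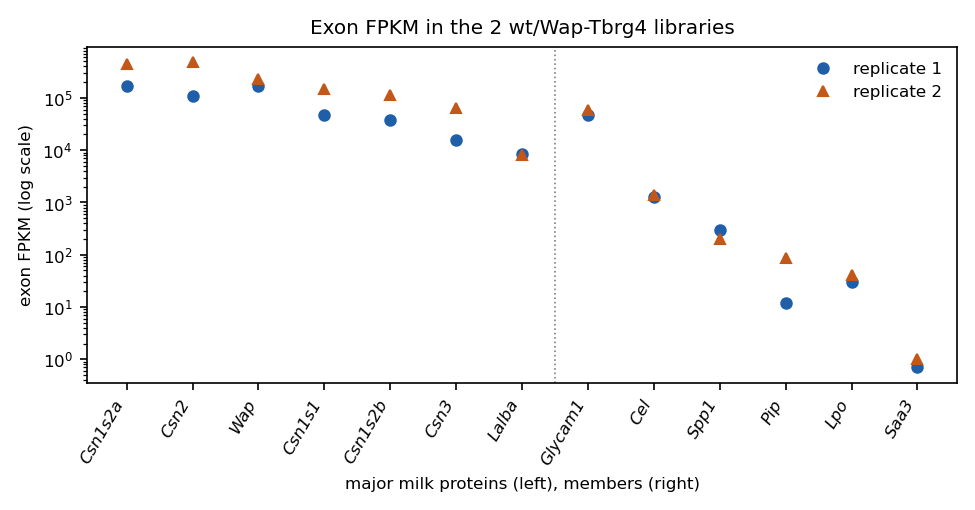
Exon FPKM (log scale) of the 7 major milk proteins and the 6 genes, with 1 circle for replicate 1 and 1 triangle for replicate 2. *Glycam1*, at 47528.0 and 58226.0, lies among the milk proteins, the other 5 genes lie below them, and *Pip* is the only 1 of the 6 whose points are far apart.

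The introns of *Glycam1* gave an intron FPKM of 0.7 and 0.6, at ranks 2370 and 2900 among all genes. This was near 0.75, the median for the 3112 genes with an exon FPKM of 10 or more. It was low for the exon level of *Glycam1*. The other milk protein genes with similar mRNA levels had far more: *Csn1s1*, *Csn1s2b*, *Csn3* and *Trf*, the 4 genes within 2-fold of its mean exon FPKM, had a median intron FPKM of 179 and a lowest value of 63. Of the 20 genes that averaged an exon FPKM of 1000 or more, none had a lower mean intron FPKM than *Glycam1*, and the next lowest was *Selenop*, which encodes a selenium carrier, at 1.25. The exon to intron ratio of *Glycam1* was 67897 and 97043, with a mean of 82470 ± 20609 (n = 2). It ranked 1 in both libraries among the 2150 genes that averaged 10 or more in exons and reached 0.5 in the introns of both, a filter that leaves out *Spp1*, *Pip* and *Saa3*. *Wap*, in second place among the genes that passed, had 1422 and 1585, so *Glycam1* lay 47.7-fold and 61.2-fold above it. The intron cut drops genes with low intron signal, some with ratios above that of *Wap*, so these ranks hold only for the genes that passed. *Spp1*, which was left out, had 2005 in replicate 2, on an estimated 2 intron reads. The median over the 2150 genes was 22.5.

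The ratio of *Glycam1* rests on few intron reads. At its 1654 intron bases, the intron FPKM corresponds to an estimated 12 reads in replicate 1 (95% Poisson interval 6.2 to 21) and 5 reads in replicate 2 (1.62 to 11.7), beside an estimated 317962 and 198661 exon reads. The counting interval of the ratio was 37503 to 126781 in replicate 1 and 42093 to 302534 in replicate 2. Even the lower bounds lay above the ratio of *Wap*. The FPKM values themselves do not depend on this length, but the reads do. With the GENCODE M21 models, an alternative chosen after the data were seen, only 190 intron bases remain, and the same FPKM would stand for 1.33 and 0.581 reads. Neither is a whole number within rounding, which spans 0.095 and 0.0484 reads on either side. At the RefSeq length rounding spans 0.827 and 0.422 reads on either side, so almost any value would pass as whole. The check thus cannot choose between the 2 lengths. No 31-base word of its exons or introns occurred elsewhere in the genome. These intervals cover counting error only.

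**Figure D2:**
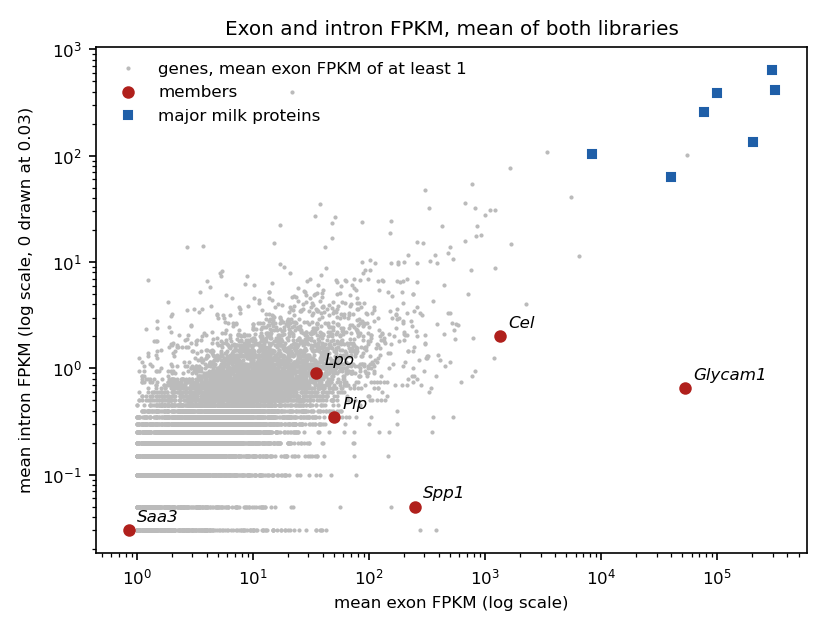
Mean exon FPKM against mean intron FPKM over both libraries, log scales, with every gene that averaged 1 or more in exons in grey, the major milk proteins as squares and the 6 genes as labelled circles. *Glycam1* lies at 52877 and 0.65, far below the squares on the intron axis, and *Spp1* lies at the lower edge of its exon level.

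*Cel* had an intron FPKM of 1.7 and 2.3, an estimated 94 and 65 intron reads. Its exon to intron ratio was 742 and 617 (mean 680 ± 88.2), which ranked 7 and 9 of the 2150 genes that passed the intron cut. *Wap* lay above it in both libraries, and *Csn1s2a*, at 586 and 839, and *Csn3*, at 483 and 682, lay above it in replicate 2 alone. *Csn2*, *Csn1s1*, *Csn1s2b* and *Lalba* lay below it in both. Among 18 other genes within 2-fold of its exon level, the median intron FPKM was 16.2, and 14 were higher than *Cel*.

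*Spp1* was listed at an intron FPKM of 0.0 and 0.1. Over its 4285 intron bases this is an estimated 2 reads in replicate 2, and in replicate 1 rounding could hide up to 2 reads behind the listed 0. Against the floor of 3 reads, its exon to intron ratio in replicate 1 came to 4169. With exon reads at their lower and intron reads at their upper 95% limit, hidden reads included, it came to 1683. In replicate 2 it was 2005, with a counting interval of 606 to 18090. Of 123 genes within 2-fold of its exon level, 120 had a higher mean intron FPKM, and their median was 2.

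*Lpo* had the same intron FPKM of 0.9 in both libraries, an estimated 151 and 77 reads over 16760 intron bases. Its exon to intron ratio was 33.3 and 44.7 (mean 39 ± 8.01), at ranks 645 and 390. *Lpo* thus lay in the middle of the genes: of 1420 within 2-fold of its exon level, 722 had a lower and 650 a higher intron FPKM. *Pip* had an intron FPKM of 0.7 in replicate 1 and was listed at 0.0 in replicate 2, an estimated 28 reads against 0, behind which rounding could hide 1 read. Its ratio was 16.9 (interval 11.5 to 25) in replicate 1. In replicate 2 it came to 587 against the floor of 3 reads, and to 278 with exon reads at their lower and intron reads at their upper 95% limit. *Saa3* was listed at 0.0 in both introns, and its exon signal came to an estimated 3.72 and 2.71 reads, too few for a ratio.

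**Figure D3:**
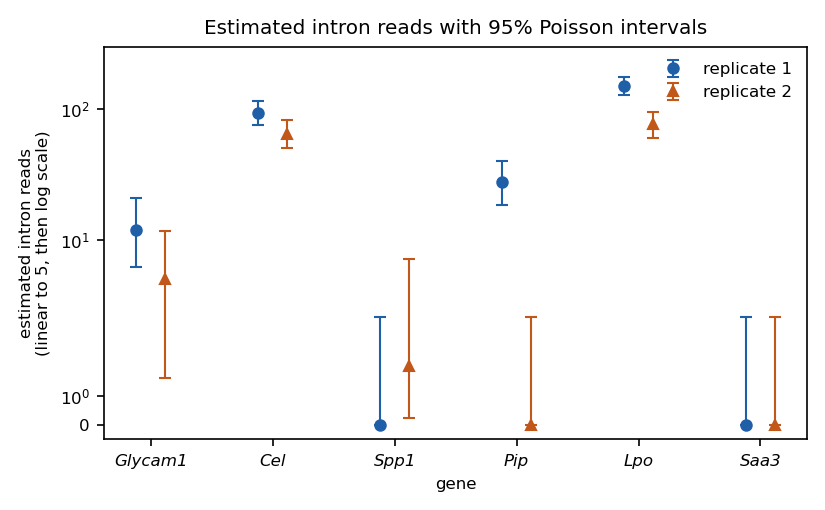
Estimated intron reads of the 6 genes in each library, with 95% Poisson intervals, on an axis that is linear to 5 and logarithmic above. *Lpo* and *Cel* had 65 to 151 reads, *Glycam1* 12 and 5, *Pip* 28 in replicate 1 and 0 in replicate 2, and *Spp1* and *Saa3* at most 2.

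Between the 2 libraries, 1 of the 5 members that averaged an exon FPKM of 1 or more was over 2-fold apart on the log2(FPKM + 1) scale, *Pip*. Over all 9845 genes, 5.95% were over 2-fold apart, 1.09% with the higher value in replicate 2 and 4.87% with the higher value in replicate 1. *Pip* differed by 2.79 on this log2 scale, from 11.8 to 87.6, and ranked 3 among all genes in the direction of replicate 2. The other 4 genes differed by 0.29 for *Glycam1*, 0.17 for *Cel*, 0.41 for *Lpo* and -0.54 for *Spp1*. *Saa3* did not pass the filter. The caseins moved further than these 4, since *Csn2* had 108555.0 and 481937.0 and *Csn1s1* had 48052.1 and 150367.8. Of the 3 members that could be compared in introns (*Glycam1*, *Cel* and *Lpo*), none was over 2-fold apart, against 6.52% of 4220 genes.

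**Figure D4:**
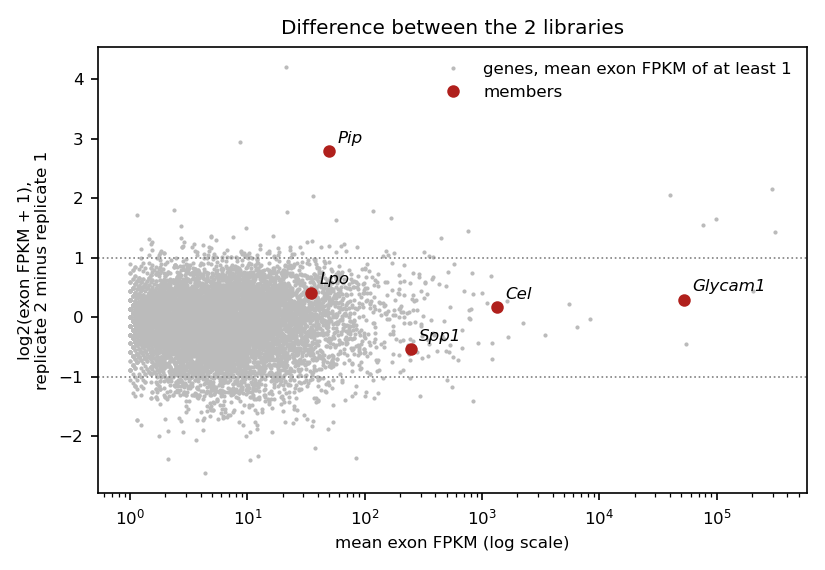
Difference in log2(exon FPKM + 1), replicate 2 minus replicate 1, against mean exon FPKM (log scale), with dotted lines at 2-fold and the members labelled. *Pip* lies at 2.79 above the cloud, and the other 4 members between -0.54 and 0.41.

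Few genes differed as much as *Pip*, though most major milk protein genes moved the same way. Of the other genes, only *Pglyrp1*, which encodes a peptidoglycan-binding protein, and *Prol1* differed more in the direction of replicate 2. Next after *Pip* came *Csn2* at 2.15 and *Csn3* at 2.05. Of the 7 major milk proteins, 5 were over 2-fold higher in replicate 2, against 1.09% of all genes. *Pglyrp1* had 1.3 and 41.2, and it was named after its values were seen. *Prol1*, which was on the list of salivary gland markers, had 1.2 and 16.0. Of the other 6 markers on that list, *Amy1* had 3.9 and 4.5, *Bpifa2*, *Dcpp1* and *Mucl2* were listed at 0 in both libraries, and *Smr3a* and *Aqp5* reached at most 0.1. The list summed to 5.3 and 20.5, and its part in the *Pip* difference was not tested. The 7 annotated neighbors of *Pip* within 200 kb, which include the related *Sval1*, *Sval2*, *Sval3* and *Sva*, had a mean exon FPKM of at most 0.15.

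The base composition of the exons also moved with the difference between the libraries. Over 9725 genes, Spearman's rho between the log2 difference and the exon GC content was -0.66, given as a description of libraries that share both samples. *Pip* has a GC content of 39.0%, at which the fitted difference was 0.43, and its difference was 2.36 once that was removed. *Cel* and *Lpo*, with a GC content of 53.7% and 53.6%, then differed by 0.45 and 0.69, and *Spp1* by -0.74. The part of base composition in these values was not tested further.

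The genes that act with or resemble each member gave a varied background. Of 12 mucin-type adhesion ligands and their enzymes with a row, 9 averaged an exon FPKM of 1 or more. The highest were *Galnt1*, whose enzyme adds the first sugar of O-glycans, at 43.6 and 45.4, and *C1galt1*, whose enzyme extends it, at 27.4 and 32.3. *Chst4* and *Fut7*, enzymes that build the sugars of these ligands, were listed at 0. None of the 9 was over 2-fold apart between the libraries, close to the 5.95% of all genes.

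For *Pip*, all 8 genes of the list of prolactin signaling and partners had a row, and 7 had a mean of at least 1. The transcription factor *Elf5* was highest, at 185.8 and 204.8. The prolactin receptor *Prlr* had 20 and 25.9, *Stat5a* had 21 in both, and *Azgp1*, whose product forms a complex with prolactin-induced protein, had 2.2 and 3.9. None of the 7 was over 2-fold apart, again close to the 5.95% of all genes.

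Among 12 lipases and cofactors, 6 had a mean of at least 1, near the share of 9845 in 20515 genes, and 5 were listed at 0. *Lpl*, lipoprotein lipase, was highest at 292.4 and 383.4, so *Cel* was 4.31-fold and 3.7-fold above it. The pancreatic lipase *Pnlip*, its relatives *Pnliprp1* and *Pnliprp2* and its cofactor *Clps* were listed at 0, and so was *Lipa*. Of 9 pancreatic acinar markers, 8 were listed at 0 in both libraries and *Cela1* had 0.4 and 0.1.

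The SIBLING relatives of *Spp1*, *Ibsp*, *Dmp1*, *Dspp* and *Mepe*, mineral-binding phosphoproteins of bone and tooth, were listed at 0 in both libraries. *Ibsp* and *Mepe* lie within 200 kb of *Spp1* on chromosome 5. Of the 10 osteopontin receptor genes, 7 had a mean of at least 1, led by *Itgb1* at 45.8 and 55.4 and *Itgav* at 31.5 and 34.2. *Itgb5* had 26.8 and 12.2 and was over 2-fold higher in replicate 1, as was 4.87% of all genes, while *Cd44* had 1.3 and 1.6. Macrophages also make osteopontin. All 7 macrophage markers had a mean of at least 1, and their exon FPKM summed to 102 and 60.2, lower in replicate 2 as *Spp1* was. Some other marker lists were lower in replicate 2 too, with a median log2 difference of -0.79 for myoepithelial, -0.69 for fibroblast, -0.26 for luminal and -0.20 for endothelial markers. Macrophage markers had -0.49, adipocyte markers 0.08 and all tested genes -0.08. Lists with only 1 or 2 tested genes had -0.26 (lymphocyte), 1.22 (neutrophil) and 1.56 (salivary gland). The part of these cell types in the *Spp1* level was not tested.

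The heme peroxidases related to *Lpo* were low or listed at 0. *Mpo* and *Epx*, the peroxidases of neutrophils and eosinophils, which lie 2016 and 37883 bases from it on chromosome 11, were listed at 0. *Pxdn*, a peroxidase of the basement membrane, had 4.5 and 4.0. Of 7 hydrogen peroxide producers, *Duox1* had 2.8 and 2.3 and its maturation factor *Duoxa1* had 4.5 and 5.7. *Duox2*, *Duoxa2*, *Nox1*, *Nox4* and *Cybb* had at most 0.2, with *Duoxa2*, *Nox1* and *Cybb* at 0.

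*Saa3* lies in the serum amyloid A cluster on chromosome 7, and its value, which rests on few reads, lay between those of *Saa1* and *Saa4* in both libraries. *Saa1* had 2.1 and 1.3, *Saa2* had 1.1 and 0.6, and *Saa4* had 0.2 and 0.1. For *Saa1* and *Saa2*, 29.7% and 41.4% of the 31-base words of their exons occur elsewhere in the genome, against 7.3% for *Saa3*. Where these copies lie was not examined, so the placing of reads on *Saa1* and *Saa2* is uncertain. Other acute phase genes were higher: *Lcn2*, which encodes an iron-scavenging defense protein, had 293.0 and 455.3, and *Lbp*, which encodes the lipopolysaccharide-binding protein, had 83.0 and 80.0. *Hp* had 12.6 and 7.0, *Il6* and *Cxcl5* were listed at 0, and 7 of the 11 genes with a row had a mean of at least 1. Of 6 neutrophil markers, *Elane* and *Mpo* were listed at 0 and the list summed to 1.6 and 3.3.

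The level of the genes around each member varied. Among the 7 genes with a row within 200 kb of *Glycam1*, the highest was *Itga5*, with a mean exon FPKM of 1.95. The highest of the 10 neighbors of *Cel* was *Ralgds*, which lies 2737 bases away and had 26.5 and 19.1. *Pkd2*, beside *Spp1*, had 5.3 and 4.0, and *Rnf43*, near *Lpo*, had 11.8 and 9.4. Near *Saa3*, 6 of 11 genes averaged 1 or more, close to the share of 9845 in 20515 genes. These 6 lay above *Saa3* by their mean, led by *Ldha*, which encodes lactate dehydrogenase A, at 146.1 and 103.1. *Sergef*, at 1.1 and 0.9, lay below *Saa3* in replicate 2. No gene model overlapped any of the 6.

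By the distance between log2 exon and intron values over both libraries, the genes nearest to *Glycam1* were *Wfdc18*, *Wfdc3* and *Cel*, at distances of 6.83, 7.32 and 7.79. *Cel* lay far closer to its nearest genes, *Clu* at 1.17, *Selenop* at 1.19 and *Folr1* at 1.79. *Ndufa1*, *Hbb-bs* and *Gpx1* were nearest to *Spp1*, at 1.12 to 1.36. *Lpo* had close matches in *Man1a2* at 0.17 and in *Fndc3a* and *Ubqln1* at 0.29 each. *Rps20* was nearest to *Pip*, at 1.93. The distances cover only 4 values per gene from 2 libraries. *Glycam1* thus lay furthest from its nearest gene among the 5 members compared. Only 4 genes lay within 2-fold of its exon level, against 18 for *Cel*, 123 for *Spp1*, 969 for *Pip* and 1420 for *Lpo*. The part of this sparse range in its distance was not tested.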

How the data were processed

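Total RNA from L10 mammary glands was made into stranded total RNA libraries and sequenced on an Illumina instrument. The authors aligned reads with STAR to mm10, collapsed the exons of each UCSC known gene, took the spaces between as introns, counted both with HTSeq and deposited FPKM values computed with DESeq2, with 1 decimal. Tool versions and the treatment of multiply mapped reads are not given in the sources used here. Of 20550 rows, 35 lacked a usable gene symbol and were dropped.

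Levels, ranks, exon to intron ratios and log2 differences were computed with Python 3.11.15, numpy 2.4.6, pandas 2.3.3, scipy 1.17.1 and statsmodels 0.14.6. Differences used log2(FPKM + 1) for exons (mean of at least 1) and log2(FPKM + 0.1) for introns (mean of at least 0.5), which understates changes of low genes. Gene lengths, GC content and coordinates came from RefSeq on GRCm38.p6 and stand in for the UCSC models. Poisson intervals are exact at 95%, and 3 reads were the floor for a 0. The number of reads per FPKM was the value on a grid that made most low values whole: 87.1% of 85 values in replicate 1 and 83.4% of 429 in replicate 2, where rounding alone covers 35% and 36.1%. At the RefSeq length, the *Saa3* exon estimates were not whole.

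The members and lists were chosen with earlier results of these data known. Named genes were the members, the 10 highest genes, the 3 nearest in level, neighbors within 200 kb, and list members that were highest or at 0, with the exceptions said in the text; 2 further genes were taken out of the lists and are not reported here, and 5 had no row used here. With 1 group, no test was run.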

Additional observations from a re-analysis of the deposited data

How the results depend on the processing

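Of 72 values recomputed under other settings, 61 stayed within the spread between the libraries, the counting interval or the tolerance set for them, and 11 moved. Reversal was scored only for log2 differences above 1 in size, thus only for *Pip*, which did not reverse. Rescaling to the summed exon FPKM was not applied to the log2 differences. By share of that sum, *Glycam1* (5.57% and 3.26%), *Cel* (0.148% and 0.0794%) and *Lpo* (0.00352% and 0.00225%) were lower in replicate 2. *Spp1* was lower too, at 0.0342% and 0.0112%, and so was *Saa3*, while *Pip* was higher, at 0.00138% and 0.0049%. Another 18 levels and ratios of 1 library alone are not counted, since with 2 libraries they lie within 1 SD of the mean by construction. The geometric means are counted although they also lie within it by construction. The same holds for the mean exon over mean intron FPKM of *Glycam1*, *Cel* and *Lpo*. Rescaling each library to a summed exon FPKM of 1000000 gave 44142 for *Glycam1* and 1136 for *Cel*. Dividing the mean exon by the mean intron FPKM gave 142 for *Pip*. Removing the trend with GC content gave log2 differences of 2.36 for *Pip*, 0.45 for *Cel*, -0.74 for *Spp1* and 0.69 for *Lpo*. *Pip* ranked 235 without replicate 1 and 2732 without replicate 2. The cause was not tested in any of these. With GENCODE M21 lengths, chosen after seeing the data, the *Glycam1* intron reads fell from 11.6 to 1.33 and from 5.06 to 0.581. The count of members over 2-fold apart was 1 under all 5 alternatives, none of which rescaled to the summed exon FPKM. By share of that sum, *Spp1* was over 2-fold apart as well as *Pip*. Of the 5 alternatives, 2 changed only the filter, so they could not alter a log2 difference and could at most add *Saa3*, at 0.23. The intron values are limited by depth, with 12 and 5 estimated reads for *Glycam1*. No paired analysis was possible because there was 1 group.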
